A study of Homo sapiens with 6 samples.

Results

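ATF4 and its target genes, together with the sensors, chaperones and degradation factors of the unfolded protein response, were followed in cultured MDA-MB-231 cells, an established line from a human breast tumour of the triple-negative class. The set was chosen by gene symbol, with no measured value in the rule but with earlier results of these data known. It holds 35 of the 15706 genes in the authors' table, and all 35 passed the filter on low values, a mean of at least 10 normalized counts. It was read in 3 groups of genes: 15 genes of the amino acid response that ATF4 directs, 4 genes of the sensors (EIF2AK3, ERN1, ATF6 and the IRE1 substrate XBP1), and 16 genes of chaperones, folding enzymes and degradation factors of the endoplasmic reticulum (ER). The 6 RNA-seq libraries fall into 2 groups of 3 biological replicates. The control group carried non-targeting guide RNA (sgNT) and is labelled wild type. The other carried guide RNA against MLL3 (sgMLL3) and is labelled MLL3 knockout. In each title the guide name bears the same number as the replicate, and whether that number marks different guides was not given. All cells were grown in DMEM with 10% FBS and had no treatment, and clone or pool, guide sequence and growth density were not given in the sources used here.

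Cells sense related kinds of strain through these genes. Unfolded proteins in the ER activate the kinase PERK (EIF2AK3), the kinase and nuclease IRE1 (ERN1) and the membrane-bound factor ATF6, and IRE1 splices the XBP1 transcript into its active form. PERK and the amino acid sensor GCN2 (EIF2AK4) both phosphorylate the translation factor eIF2, which slows protein synthesis and favours translation of ATF4, a transcription factor that induces genes of amino acid synthesis and transport. Because ATF4 and XBP1 are controlled by translation and by splicing, gene-level counts read their transcripts and not their activity.

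The targeted gene KMT2C, the approved symbol of MLL3, was read at 1367, 1379 and 1255 normalized counts in the control libraries and 1519, 1660 and 1339 in the knockout libraries, so its transcript level gave no check of the label. Whole reads, recovered from the normalized counts, numbered 41240265 to 49514464 per library. Of 6 genes known to be high in MDA-MB-231, all 6 were in the table, with summed levels of 153338 to 157973 in control and 149009 to 155595 in knockout libraries. Luminal breast markers, 5 of 8 analysed, summed to 32886 to 35775 in control and 26090 to 30477 in knockout libraries, while ESR1, PGR and FOXA1 were not analysed here. Leukocyte markers, 4 of 6 analysed, summed to 571 to 905 in control and 435 to 555 in knockout libraries. Fibroblast markers, 3 of 7 analysed, summed to 1037 to 1163 and 756 to 864, and endothelial markers, 3 of 5 analysed, to 222 to 292 and 166 to 207. All 4 of these marker sums were lower in every knockout library than in every control, but single genes did not all follow their sum. KRT19, with a control mean of 26871, dominated the luminal sum. EPCAM of that list was higher with knockout, at 796, 790 and 765 in control and 999, 974 and 861 in knockout libraries. For ITGAM, COL3A1 and PECAM1, among others, the groups overlapped. The part of these markers in the results was not tested. Control replicate 1 stood apart from the other libraries in these stress genes. It was the lowest of the 6 libraries for 29 of the 35 genes (82.9%), against 15.3% of all 14618 genes tested. Counts of calls are therefore given also without it.

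Between knockout and control, 9 of the 35 genes (25.7%) passed in limma, a linear model fitted to log2 values of all genes tested (adjusted p under 0.05), of which 7 had higher and 2 lower levels after knockout. In bulk RNA, a change in the number of cells that express a gene and a change in its RNA per cell cannot be told apart. Over all genes tested the shares were 33.2% in either direction, 18.9% higher and 14.4% lower, so the share was smaller in the set. Without control replicate 1 that order turned, with 54.3% of the set called against 42.2% of all genes tested. That library was singled out for its low values in these same genes, so the turn follows in part from the choice. In the amino acid response 1 gene was higher (CEBPG) and 1 lower (SHMT2) of 15. Among the sensors 1 of 4 was higher (EIF2AK3), and among the ER genes 5 of 16 were higher (HSP90B1, DNAJB9, DNAJC3, CANX, SEL1L) and 1 lower (SYVN1). A further 26 genes did not pass. In the authors' deposited table, 9 of the 35 had an adjusted p under 0.05. The 3 knockout values did not overlap the 3 control values for 11 genes (31.4%), 10 of them above and 1 below, against 46.3% of all genes tested. These calls went with the base composition of the transcripts, which is described further on: once the trend along GC content and length was subtracted, limma called 0 of the 35, with 7 at an unadjusted p under 0.05, against 10.0% of all genes tested (4.08% higher, 5.95% lower).

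**Figure D1:**
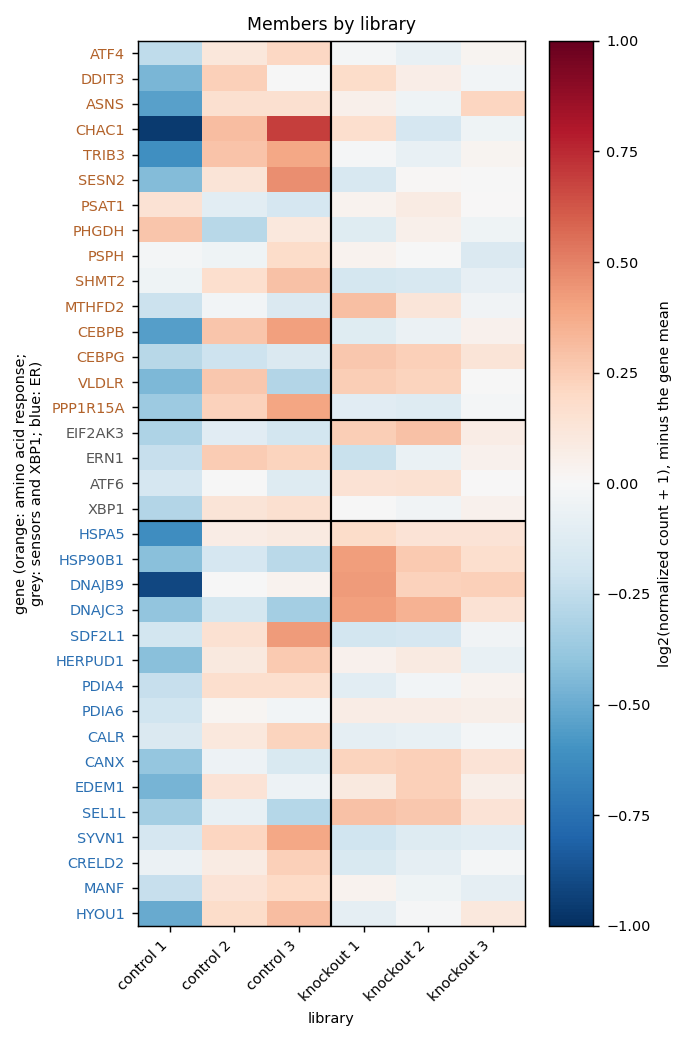
Heat map of log2(normalized count + 1) minus the mean of the gene over the 6 libraries, for the 35 genes (rows, grouped and coloured by role) in the 3 control and 3 knockout libraries (columns). The first column, control replicate 1, is blue for most genes, and it is the lowest library for 29 of them.

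Expression per length put the ER chaperones at the top of the set. As normalized counts per kb of the longest annotated transcript, averaged over the 6 libraries, the calcium-binding chaperone CALR stood at 38306, the HSP70 chaperone HSPA5 (BiP) at 16586 and HSP90B1 (GRP94) at 8492. ATF4 followed at 6752. PDIA4 and PDIA6, which form and shuffle disulfide bonds, stood at 4678 and 4308 per kb. The lowest levels per kb belonged to VLDLR (29.3), ASNS (34.7) and PHGDH (67.6). These cells held far more transcript of its serine hydroxymethyltransferase SHMT2 (3331 per kb) and of PSAT1 (1886) than of PHGDH, the first enzyme of serine synthesis. These lengths are those of the longest transcript of a gene, which need not be the one expressed.

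Of 4 transcription factors in the amino acid response, 1 passed. ATF4 (chromosome 22, 39519695 to 39522685, plus strand, on GRCh38 with GENCODE 29 genes, as for the positions that follow) was read at 11400, 14695 and 15623 normalized counts in the 3 controls, in the order of their replicate numbers, and at 13378, 12872 and 13828 with knockout. The knockout values all lay between control replicate 1 and the other 2 controls. Its log2 fold change, knockout minus control on the log2(value + 1) scale, was -0.05 (limma, SE 0.098, adjusted p = 0.752). DDIT3, which encodes the stress factor CHOP, stood at 269, 436 and 368 in control and 420, 388 and 362 in knockout libraries, with the groups overlapping (log2 fold change 0.15, limma SE 0.16, adjusted p = 0.498). CEBPB, a bZIP factor that pairs with ATF4, ranged more widely among the controls, at 1846, 3276 and 3602, than among the knockouts, at 2481, 2602 and 2785 (log2 fold change -0.09, limma SE 0.16, adjusted p = 0.696). CEBPG, another bZIP partner of ATF4 (chromosome 19, 33373330 to 33382686, plus strand), was the one that rose. Its counts were 1344, 1413 and 1474 in control and 1962, 1920 and 1783 in knockout libraries, every knockout above every control, a log2 fold change of 0.42 (limma, SE 0.092, adjusted p = 0.0027). It passed without each of the 6 libraries in turn, and stood at 0.23 (SE 0.075, adjusted p = 0.077) after trend removal.

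Enzymes of serine and one-carbon metabolism, which ATF4 is known to induce, gave values of either sign. SHMT2, the mitochondrial serine hydroxymethyltransferase (chromosome 12, 57229327 to 57234935, plus strand), was read at 10976, 12671 and 13848 in control and 9987, 10121 and 10664 in knockout libraries. The groups did not overlap, and it fell by 0.28 on the log2 scale (SE 0.087, limma adjusted p = 0.021). Leaving out control replicate 2 or 3 ended that call (adjusted p = 0.07 and 0.099), as did leaving out knockout replicate 1 or 2 (0.086 and 0.091), and the value was -0.09 (SE 0.061, adjusted p = 0.389) after trend removal. MTHFD2, its neighbour in the mitochondrial folate pathway, had the opposite sign at 0.26 (limma, SE 0.1, adjusted p = 0.057), with counts of 1540, 1752 and 1611 against 2196, 1942 and 1742 that overlapped. MTHFD2 missed the threshold, which it passed on leaving out knockout replicate 3 (0.34, adjusted p = 0.023), and the authors' deposited table gave it an adjusted p of 0.044. After trend removal MTHFD2 stood at -0.06 (limma, SE 0.081, adjusted p = 0.677), with the same sign as SHMT2. The 3 enzymes of serine synthesis showed no call: PHGDH at -0.07 (limma, SE 0.17, adjusted p = 0.771), PSAT1 at 0.09 (limma, SE 0.09, adjusted p = 0.491) and PSPH at -0.08 (limma, SE 0.1, adjusted p = 0.582). PHGDH and PSAT1 were also the 2 genes of the 35 for which control replicate 1 was the highest library, with PSAT1 at 4556, 3827 and 3654 in control and 4223, 4359 and 4136 in knockout libraries. PSPH has a near-identical relative in the genome, and ATF4, MTHFD2 and HSP90B1 have processed pseudogenes, so reads of these genes may have been split or lost in counting. ASNS, asparagine synthetase, was low, at 54.9, 90.2 and 89.8 against 83.5, 78.0 and 93.6 (log2 fold change 0.15, limma SE 0.24, adjusted p = 0.671).

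Feedback and effector genes of the same response differed more among the control libraries than between the groups. CHAC1, a glutathione-degrading enzyme, was read at 181, 436 and 569 normalized counts in the controls and 396, 314 and 342 in the knockouts. TRIB3, a pseudokinase that restrains ATF4, had 1857, 3460 and 3719 against 2815, 2703 and 2888. PPP1R15A (GADD34), the subunit that directs dephosphorylation of eIF2, had 5789, 8715 and 9793 against 6895, 6794 and 7340. In all 3, the knockout libraries lay between control replicate 1 and control replicates 2 and 3, and the fold changes were -0.03, -0.04 and -0.17 (adjusted p = 0.953, 0.876 and 0.320). SESN2, a stress sensor upstream of mTORC1, followed the same order, at 241, 357 and 450 against 292, 330 and 325 (log2 fold change -0.10, limma SE 0.18, adjusted p = 0.691). VLDLR, a lipoprotein receptor, stood at 193, 317 and 215 in control and 313, 308 and 263 in knockout libraries (log2 fold change 0.31, limma SE 0.18, adjusted p = 0.177), and its groups overlapped. It passed on leaving out control replicate 2 (0.53, adjusted p = 0.036).

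Among the sensors, EIF2AK3, which encodes PERK (chromosome 2, 88556741 to 88627576, minus strand), rose. Its counts were 485, 554 and 527 in control and 711, 734 and 630 in knockout libraries with no overlap, a log2 fold change of 0.40 (limma, SE 0.12, adjusted p = 0.014). Without knockout replicate 1 or 2 the adjusted p was 0.068 and 0.094, and after trend removal the value was 0.23 (SE 0.098, adjusted p = 0.157). ATF6, the factor released from the membrane under stress, was read at 3367, 3773 and 3467 against 4202, 4224 and 3800. Its groups did not overlap either, although 0.20 (limma, SE 0.085, adjusted p = 0.07) missed the threshold, which it passed on leaving out knockout replicate 3 (0.25, adjusted p = 0.043). ERN1, which encodes IRE1, had 510, 713 and 696 against 512, 570 and 617 and overlapped (log2 fold change -0.16, limma SE 0.14, adjusted p = 0.374). XBP1 stood at 3333, 4458 and 4557 in control and 4063, 3968 and 4204 in knockout libraries, and the group means were nearly equal at 4116 ± 680 and 4078 ± 119 (SD, n = 3 each; limma adjusted p = 0.999).

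The promoters of the set were searched for elements known for these pathways. The genes were picked as known members of the same pathways, so matches are not a trait independent of that choice. The ER stress response element is CCAAT, then 9 bases of any kind, then CCACG, and it is known as the binding site of NF-Y and ATF6. It was searched on both strands in RefSeq promoters of GRCh38.p14, from 250 bases before to 50 after each start, which held 33 of the 35 genes, all but PSPH and SHMT2. It occurred in 6 of 16 ER genes (HSPA5, HSP90B1, PDIA6, CALR, CANX, CRELD2), in XBP1 among the 4 sensors and in 0 of 13 genes of the amino acid response, against 0.0916% of the 27305 gene symbols and 0.0769% of the 35116 promoters in the table. The core of the amino acid response element, TGATGNAA, is the binding site of ATF4 with a C/EBP partner. It occurred in 3 of 13 genes of the amino acid response (ASNS, CHAC1 and CEBPG), 1 of 16 ER genes (HERPUD1) and 0 of 4 sensors. The shares were 4.46% of all symbols and 3.62% of all promoters. Another element, TGACGTGG, the core bound by spliced XBP1 and ATF6, occurred in HYOU1 alone of the set and in 0.927% of all symbols and 0.729% of all promoters. A match is a description of these letters and not evidence of binding. The stretches below carry the element in capitals, 5′ to 3′ on the strand of the gene, and are shown because these genes span the range of results from called higher to not called. They lie before a RefSeq start, and those of 5 of the 8 genes (HSP90B1, CANX, CHAC1, ASNS and CEBPG) lie within the span of the gene in GENCODE 29, whose outermost start differs.
HSP90B1, first element, chr12:103930211-103930239, plus strand: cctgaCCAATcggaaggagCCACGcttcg
HSP90B1, second element, chr12:103930316-103930344, plus strand: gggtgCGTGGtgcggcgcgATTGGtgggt
CANX chr5:179698773-179698801, plus strand: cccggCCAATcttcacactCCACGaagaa
HSPA5 chr9:125241386-125241414, minus strand: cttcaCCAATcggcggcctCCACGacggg
CALR chr19:12938379-12938407, plus strand: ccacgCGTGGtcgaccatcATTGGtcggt
XBP1 chr22:28800598-28800626, minus strand: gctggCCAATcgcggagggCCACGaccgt
CHAC1 chr15:40953257-40953274, plus strand: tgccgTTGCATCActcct
ASNS chr7:97872464-97872481, minus strand: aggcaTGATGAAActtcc
CEBPG chr19:33374066-33374083, plus strand: gcgtcTGATGCAAcctgc

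HSP90B1 carries 2 such elements, in opposite orientations, and CALR carries its element on the opposite strand, as does CHAC1. Genes with the same element differed in their calls. HSP90B1 and CANX were called higher, whereas HSPA5, CALR, PDIA6, CRELD2 and XBP1 were not called. CEBPG was called higher, and CHAC1 and ASNS were not. After trend removal none of these genes was called. HSP90B1 and CANX then stood at 0.25 and 0.08. HSPA5, CALR, PDIA6, CRELD2 and XBP1 stood at 0.22, 0.05, 0.06, -0.01 and -0.29. CEBPG, CHAC1 and ASNS stood at 0.23, 0.23 and 0.13.

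The chaperone HSP90B1 (chromosome 12, 103930107 to 103953645, plus strand) showed the smallest adjusted p of the set. It was read at 18908, 22415 and 20917 normalized counts in control and 33720, 30275 and 28259 in knockout libraries, from 20747 ± 1760 to 30751 ± 2761 (mean ± SD, n = 3 each). Every knockout library lay above every control, and the log2 fold change was 0.57 (limma, SE 0.087, adjusted p = 0.00018). DNAJC3, the co-chaperone P58IPK that also restrains PERK, rose from 1485 ± 121 to 2260 ± 211, with library values of 1392, 1622 and 1441 against 2434, 2322 and 2025 (log2 fold change 0.60, limma SE 0.099, adjusted p = 0.00031). DNAJB9, the co-chaperone ERdj4, was read at 394, 741 and 761 against 996, 870 and 875. Its control replicate 1 lay far under the others, yet no control reached the knockout values, and it rose by a log2 fold change of 0.59 (limma, SE 0.18, adjusted p = 0.019). Without control replicate 1 the rise of DNAJB9 was 0.28 (SE 0.11, adjusted p = 0.043), without knockout replicate 1 its adjusted p was 0.098, and in the authors' deposited table it was 0.16. CANX, the membrane-bound lectin chaperone calnexin, rose from 13952 ± 1648 to 18278 ± 708, at 12152, 15387 and 14315 against 18581, 18783 and 17469 (log2 fold change 0.40, limma SE 0.088, adjusted p = 0.0029). HSP90B1, DNAJC3 and CANX passed without each of the 6 libraries in turn.

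Other chaperones of the same compartment did not pass. HSPA5, the master chaperone of the ER (chromosome 9, 125234853 to 125241330, minus strand), was read at 41395, 67114 and 67937 in control and 72449, 69987 and 70017 in knockout libraries. All 3 knockouts lay above all 3 controls, and control replicate 1 stood at 61.3% of the mean of the other 2 controls. Its log2 fold change was 0.30 (limma, SE 0.13, adjusted p = 0.086), and 0.07 (SE 0.073, adjusted p = 0.478) without that library. On leaving out control replicate 2 or 3, HSPA5 passed (0.42 and 0.43, adjusted p = 0.039 and 0.016). CALR, the soluble partner of calnexin, stood at 65564, 78107 and 84889 against 68170, 68996 and 71651 (log2 fold change -0.12, limma SE 0.091, adjusted p = 0.315), on the other side of 0 from CANX. After trend removal both had the same sign, CALR at 0.05 (limma, SE 0.074, adjusted p = 0.754) and CANX at 0.08 (SE 0.089, adjusted p = 0.604). PDIA6 was read at 10042, 11674 and 11331 in control and 12116, 12143 and 12016 in knockout libraries, again with no overlap and no call (log2 fold change 0.14, limma SE 0.079, adjusted p = 0.189). PDIA4 stood at 11493, 15186 and 15145 against 12563, 13272 and 13822, and the groups overlapped (log2 fold change -0.07, limma SE 0.097, adjusted p = 0.633). HYOU1, the nucleotide exchange factor of BiP, had 9903, 15964 and 17393 against 13181, 13885 and 15082, with the knockouts inside the span of the controls (adjusted p = 0.994). SDF2L1, a BiP cofactor, stood at -0.26 (limma, SE 0.12, adjusted p = 0.105), and the secreted stress proteins MANF and CRELD2 at -0.07 (limma, SE 0.1, adjusted p = 0.619) and -0.17 (limma, SE 0.1, adjusted p = 0.208).

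The genes of ER-associated degradation included an opposed pair. SEL1L and SYVN1 encode the adaptor and the ubiquitin ligase (HRD1) of one complex. SEL1L (chromosome 14, 81471549 to 81533861, minus strand) rose from 3403 ± 341 to 4683 ± 271 normalized counts, with library values of 3154, 3792 and 3263 against 4885, 4789 and 4375 and no overlap (log2 fold change 0.46, limma SE 0.09, adjusted p = 0.0011). SYVN1 (chromosome 11, 65121780 to 65134533, minus strand) fell from 5163 ± 984 to 4171 ± 148, at 4100, 5346 and 6042 against 4006, 4217 and 4290, where control replicate 1 overlapped the knockouts (log2 fold change -0.29, limma SE 0.11, adjusted p = 0.049). The call of SEL1L passed without each of the 6 libraries. That of SYVN1 was lost on leaving out any library other than control replicate 1: its adjusted p rose to 0.15 and 0.24 on leaving out control replicate 2 or 3, and to 0.16, 0.11 and 0.072 on leaving out knockout replicate 1, 2 or 3. After trend removal SEL1L stood at 0.04 (SE 0.073, adjusted p = 0.768) and SYVN1 at -0.12 (SE 0.093, adjusted p = 0.461). EDEM1, a lectin that hands misfolded glycoproteins to this complex, was at 0.26 (limma, SE 0.12, adjusted p = 0.098) and passed on leaving out control replicate 2 (0.39, adjusted p = 0.026). HERPUD1, which assembles it, stood at 0.04 (limma, SE 0.13, adjusted p = 0.847).

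**Figure D2:**
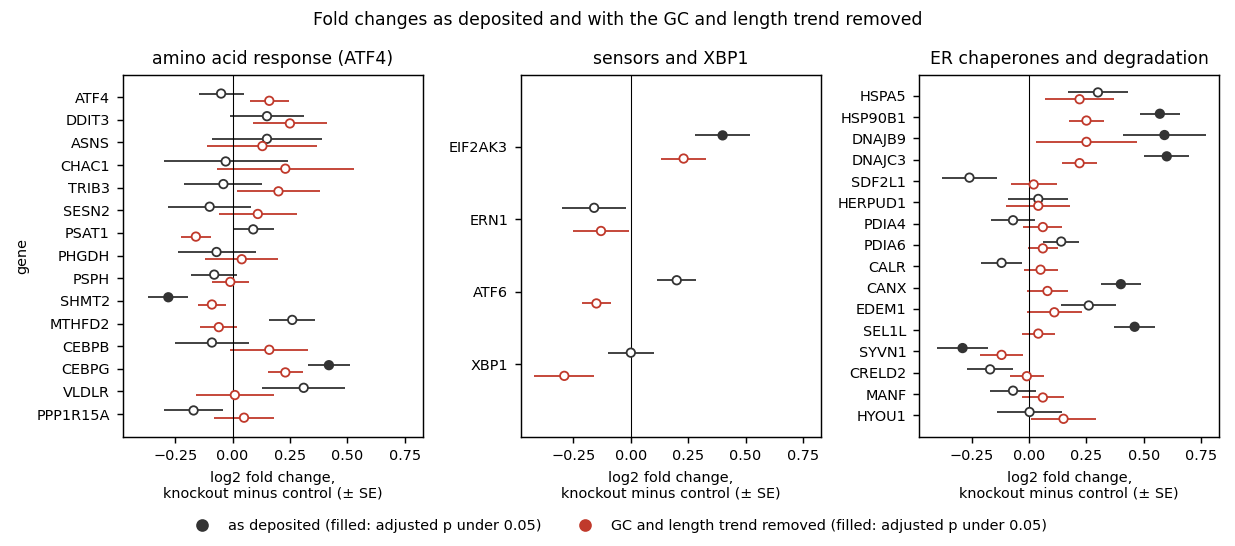
Log2 fold change of each gene, knockout minus control, with its limma SE, as deposited (black) and with the GC and length trend removed (red). The panels are the amino acid response, the sensors with XBP1, and the ER genes, and filled points have an adjusted p under 0.05. The 9 filled black points include 5 higher ER genes, and no red point is filled.

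Set side by side, the amino acid response showed a median fold change of -0.04 and the ER genes one of 0.087 on the log2 scale, where that of all genes tested was -0.017. The medians differed by 0.127. Without control replicate 1 the ER median was -0.0478 and the amino acid median -0.108, so both were negative and the difference was 0.0602. In each library the median of the ER genes minus that of the amino acid genes, on gene-centred log2 values, came to -0.0011, -0.074 and -0.056 for the controls and to 0.022, 0.086 and 0.065 for the knockouts. The knockout libraries therefore all lay above the controls. The ER genes also had the lower median GC content, at 47.0% against 52.3%. After trend removal the same difference was 0.07, -0.0079 and -0.027 in the controls and -0.044, 0.011 and 0.045 in the knockouts, and the groups overlapped. The median fold changes were then 0.11 for the amino acid response and 0.062 for the ER genes, in the opposite order. Without control replicate 1 as well they were -0.108 and -0.0619, a difference of 0.0457 with the ER genes again the higher.

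GC content ordered the fold changes within the set. Over the 35 genes Spearman's rho between log2 fold change and GC percent of the longest transcript was -0.83, and over 14598 genes it was -0.673. These are descriptions across genes that share the same 6 libraries. Of the 8 genes under 42% GC (MTHFD2, ATF6, XBP1, HSP90B1, DNAJB9, DNAJC3, CANX, SEL1L), 5 were called higher, where 56.7% of all genes in that range were. Of the 10 genes at 55% or more, 2 were called lower (SHMT2 and SYVN1) and 0 higher, where 36.3% of all genes in that range were lower. From 42% to 46% GC, 2 of 6 genes were called higher (CEBPG and EIF2AK3) and 0 lower, where 25.5% of all genes were higher and 1.59% lower. The 11 genes from 46% to 55% had no call. Of all genes, 5.8% were higher and 4.8% lower from 46% to 50%, and 1.41% and 16.3% from 50% to 55%. Within the low range the set still spread. XBP1 at 41.5% GC had nearly equal group means, and DNAJC3 at 39.9% GC had a log2 fold change of 0.60. HSP90B1, at 41.2% GC, stood at 0.57. Whether base composition, as a feature of library preparation or of the cells, produced these differences was not tested.

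**Figure D3:**
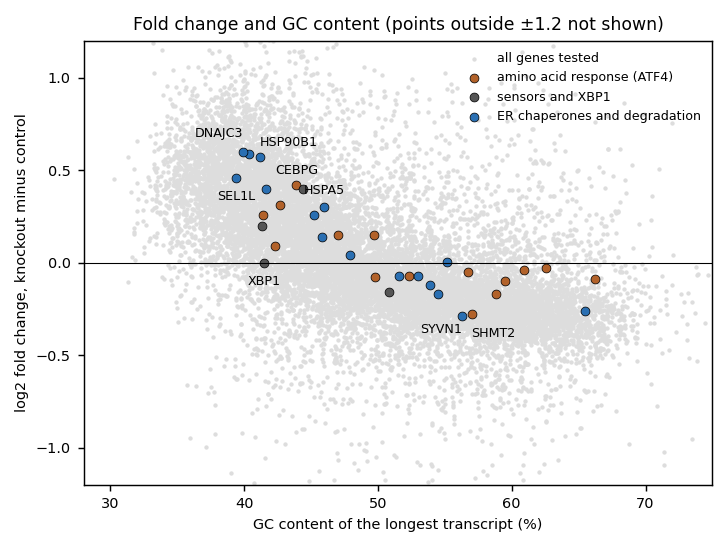
Log2 fold change, knockout minus control, against the GC content of the longest transcript for all tested genes (grey) and for the 35 genes (coloured by role). The ER genes under 42% GC lie from 0.40 (CANX) to 0.60 (DNAJC3), where the median of all genes in that range is 0.40. SHMT2 and SYVN1 lie at -0.28 and -0.29, where the median of all genes at 55% GC and over is -0.24.

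Among the 9 called genes, the trend-removed values kept their sign and were nearer to 0. HSP90B1 stood at 0.25 (SE 0.077, adjusted p = 0.064), CEBPG at 0.23 (adjusted p = 0.077), DNAJC3 at 0.22 (SE 0.077, adjusted p = 0.102) and DNAJB9 at 0.25 (SE 0.22, adjusted p = 0.522). CANX stood at 0.08 (SE 0.089, adjusted p = 0.604). On this scale ATF4 was at 0.16 (SE 0.084, adjusted p = 0.247) and XBP1 at -0.29 (SE 0.13, adjusted p = 0.183), so that XBP1 had the largest negative value of the 35.

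The spread of these genes among the controls was wide. The median SD of log2 values among the controls was 0.352 for the amino acid response and 0.231 for the ER genes, against 0.146 for all genes tested. Among the knockouts the same medians were 0.084, 0.076 and 0.118, so there the stress genes varied less than genes in general. Control replicates 2 and 3 alone gave 0.097, 0.086 and 0.101. The median of gene-centred log2 values in control replicate 1 was -0.36 in the amino acid response, -0.26 in the sensors and -0.36 in the ER genes, and 0.0016 over all genes tested. After trend removal these medians in the 3 groups of genes were -0.36, -0.23 and -0.29. CHAC1, DNAJB9, TRIB3 and CEBPB stood in that library at 36.0%, 52.5%, 51.7% and 53.7% of the mean of the other controls. The labels give no handling or date that sets this library apart, and why it was low was not tested.

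Without control replicate 1, knockout against control gave 19 of 35 calls, 7 higher and 12 lower, against 42.2% of all genes tested (22.6% higher, 19.6% lower). All 9 genes called with 6 libraries were called again in the same direction. The genes added were all lower: CHAC1 (-0.51, adjusted p = 0.0051), TRIB3 (-0.36, 0.0014), CEBPB (-0.39, 0.00076) and PPP1R15A (-0.40, 0.00018) of the amino acid response, ERN1 (-0.32, 0.034) of the sensors, and SDF2L1, PDIA4, CALR, MANF and HYOU1 of the ER genes (-0.42, -0.20, -0.23, -0.20 and -0.25). ATF4 stood at -0.18 (SE 0.076, adjusted p = 0.052). The amino acid response then had 1 gene higher and 5 lower of 15, and the ER genes 5 higher and 6 lower of 16. After trend removal as well, 1 of 35 was higher (HSP90B1, 0.15, adjusted p = 0.011) and 7 lower, against 24.7% of all genes tested (10.2% higher, 14.5% lower). The lower genes were XBP1 (-0.47, 1.3e-06), SYVN1 (-0.25, 0.00039), ATF6 (-0.22, 0.0016), SHMT2, PPP1R15A, ERN1 and HERPUD1. Control replicate 1 was singled out for its low values in these same genes. Leaving it out lowers most of their fold changes by construction. The lower calls of these fits are therefore not independent evidence of a fall with knockout.

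**Figure D4:**
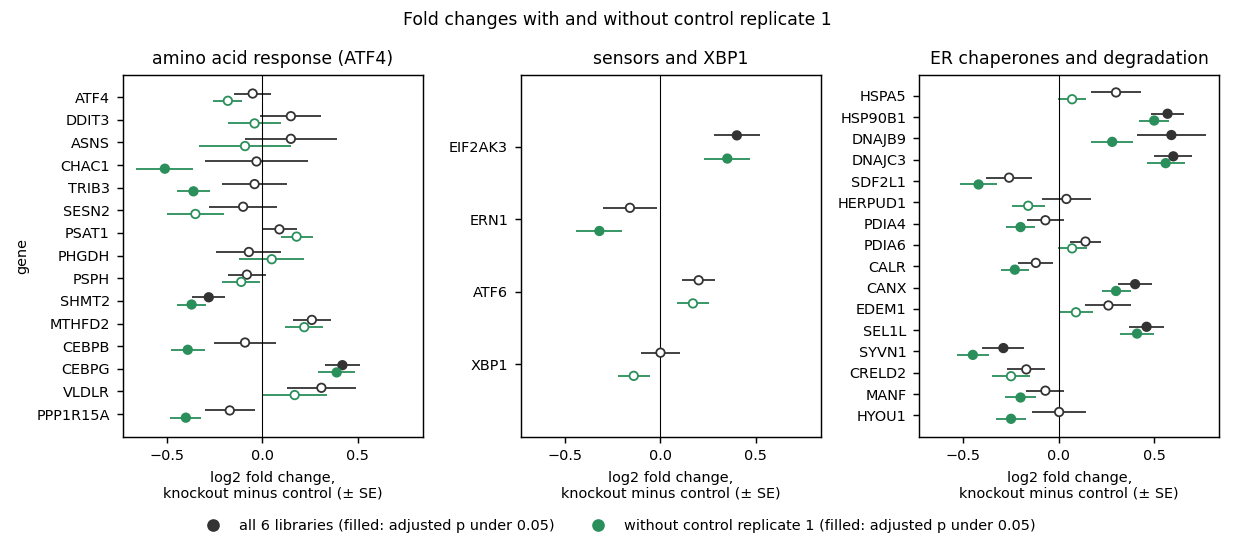
Log2 fold change of each gene, knockout minus control, with its limma SE, from all 6 libraries (black) and without control replicate 1 (green), where filled points have an adjusted p under 0.05. Points of most genes move left without that library, and 12 genes are then called lower. The library was singled out for its low values in these same genes.

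Wider lists of the same pathways, taken from textbook knowledge, covered 135 symbols. Their counts stand against 18.9% higher and 14.4% lower of all genes tested, 4.08% and 5.95% after trend removal, and 22.6% and 19.6% without control replicate 1. Of 26 tested other targets of ATF4 in the amino acid response, 5 were higher and 4 lower, shares near those of all genes. BCAT1, a branched-chain aminotransferase, rose from 2136 ± 121 to 3071 ± 339 (log2 fold change 0.52, limma SE 0.096, adjusted p = 0.00079), and XPOT, the tRNA export factor, from 4956 ± 450 to 6802 ± 301 (log2 fold change 0.46, limma SE 0.085, adjusted p = 0.00082). JDP2, an AP-1 family repressor, fell from 582 ± 133 to 391 ± 21 (log2 fold change -0.55, limma SE 0.15, adjusted p = 0.01), and SLC7A5, the large neutral amino acid transporter, from 36781 ± 1509 to 29967 ± 3215 (log2 fold change -0.30, limma SE 0.086, adjusted p = 0.013). None of these 4 passed after trend removal (0.06, 0.10, -0.48 and -0.09), where 1 gene of the list was higher and 0 lower. Control replicate 1 and knockout replicate 1 were each the lowest library for 9 of the 26. Without control replicate 1 the list gave 4 higher and 12 lower. GDF15, a stress-induced cytokine chosen after its values were seen, was low in that library, at 260, 882 and 1073 in the controls and 765, 713 and 727 in the knockouts.

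Aminoacyl-tRNA synthetases, which charge tRNAs and include known ATF4 targets, gave 7 higher and 2 lower of 20, with a median GC content of 47.7%. TARS1 rose from 16549 ± 1307 to 25780 ± 1530 (log2 fold change 0.64, limma SE 0.082, adjusted p = 5.2e-05) and EPRS1 from 4698 ± 637 to 7527 ± 520 (log2 fold change 0.69, limma SE 0.095, adjusted p = 8.5e-05), and both also passed after trend removal (0.43 and 0.45, adjusted p = 0.0013 and 0.0034). FARSA and VARS1 were lower, with log2 fold changes of -0.27 and -0.24 (adjusted p = 0.02 and 0.039), and stood at -0.02 and -0.02 after trend removal. That left 3 of 20 higher and 0 lower, and without control replicate 1 the list gave 8 higher and 6 lower. Of 12 genes of the eIF2 kinases, eIF2, its exchange factor eIF2B and a phosphatase cofactor, 4 were higher and 0 lower, and without control replicate 1, 4 were higher and 1 lower. EIF2S2, the beta subunit of eIF2, rose from 9517 ± 505 to 13752 ± 914 (log2 fold change 0.53, limma SE 0.08, adjusted p = 0.00016) and was the one gene called after trend removal (0.42, adjusted p = 0.0012). EIF2S1, the alpha subunit that the kinases phosphorylate, rose by 0.37 (limma, SE 0.088, adjusted p = 0.0049) and stood at -0.02 after trend removal.

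Relatives and processing proteases of ATF6 and partners of IRE1 gave 2 higher and 3 lower of 12, and 2 higher and 4 lower without control replicate 1. CREB3L1, a membrane-bound relative of ATF6, was read at 3909, 3944 and 3855 against 2498, 2764 and 2749 and fell in both fits (log2 fold change -0.55, limma SE 0.083, adjusted p = 0.00017, and -0.32 after trend removal, adjusted p = 0.012). MBTPS2, the site-2 protease that releases ATF6, and CREBZF, a bZIP factor, were higher by 0.45 and 0.31, and ATF6B was lower (-0.23), none of which passed after trend removal. Other ER folding enzymes and co-chaperones gave 12 higher and 0 lower of 23, with a median of 0.28. The median GC content of this list was 44.7%, where 48.5% was that of all genes tested. Most of its higher genes lay under 42% GC, a range in which 56.7% of all genes were called higher. Between 42% and 46% GC 25.5% of all genes were called higher. DNAJC10, an ER reductase, rose from 3755 ± 86.3 to 6060 ± 345 (log2 fold change 0.69, limma SE 0.08, adjusted p = 3.8e-05) and SEC63, which recruits BiP to the translocon, from 2277 ± 88 to 3781 ± 362 (log2 fold change 0.73, limma SE 0.09, adjusted p = 4.6e-05). After trend removal 4 of the 23 were higher and 0 lower, SEC63 among them (0.32, adjusted p = 0.012), and without control replicate 1, 12 were higher and 3 lower.

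Other degradation genes gave 4 higher and 2 lower of 23. EDEM3, a mannosidase of the EDEM1 family, rose from 935 ± 52.5 to 1588 ± 91.3 (log2 fold change 0.76, limma SE 0.098, adjusted p = 5.5e-05), and UBXN4, a VCP adaptor, from 4252 ± 87.4 to 6277 ± 516 (log2 fold change 0.56, limma SE 0.083, adjusted p = 0.00014). NPLOC4, another VCP cofactor, was lower (log2 fold change -0.26, limma SE 0.077, adjusted p = 0.016). EDEM3, UBXN4 and NPLOC4 passed after trend removal as well (0.33, 0.21 and -0.20), where the list held 2 higher and 3 lower. Without control replicate 1 it gave 5 higher and 6 lower. Genes of ER translocation and retrieval gave 4 higher and 1 lower of 17. SSR1 and SSR3 of the translocon-associated complex rose by 0.54 and 0.43, and SSR4 of the same complex had -0.33 (adjusted p = 0.00017, 0.0016 and 0.0072). None of these 3 passed after trend removal, and control replicate 1 was the lowest library for 13 of the 17 genes, which without it gave 4 higher and 4 lower.

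**Figure D5:**
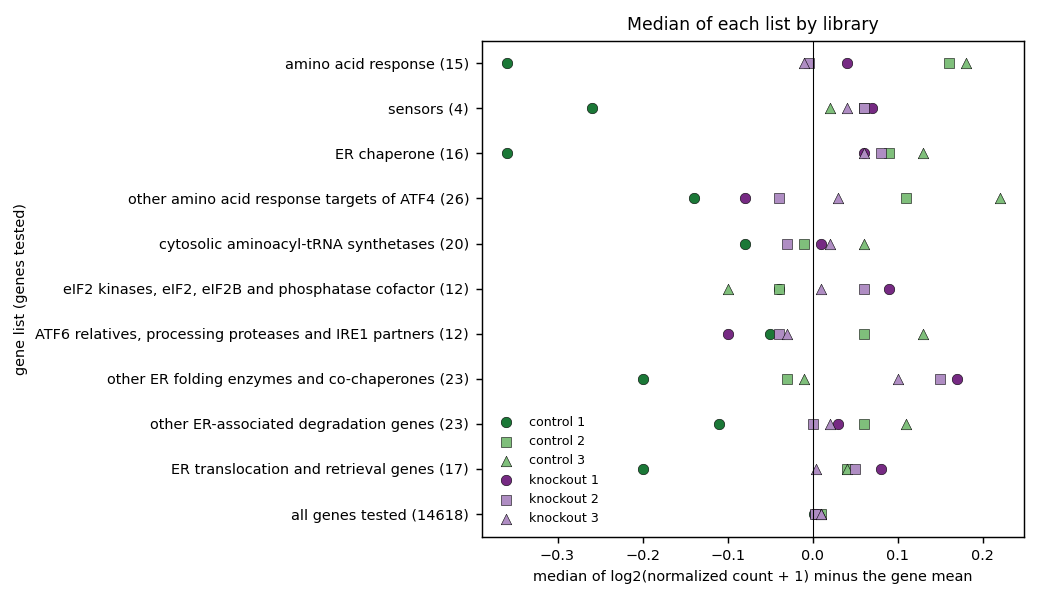
Median over the genes of each list of log2(normalized count + 1) minus the gene mean, for each of the 6 libraries (green, control; purple, knockout). Control replicate 1 lies at -0.36 in the amino acid and ER lists of the set, left of every other library, and near 0 over all genes tested.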

How the data were processed

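RNA-seq values of 6 libraries, 3 control and 3 MLL3 knockout, were read from 1 table. Per the submitters' processing notes the tools named are FastQC and, in no given order, STAR 2.4.0, featureCounts (version 1.5.0) and DESeq2 1.30.1, with build GRCh38.p13. The sources used here do not give the annotation, strand setting or filters. For each library the authors deposited a normalized count (a signal: reads divided by 1 size factor), and per the file headers a log2 fold change, its SE, a Wald score and p-values. Whole reads were recovered, with 100% of values within 0.01 of a whole number.

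The members, lists and tests were chosen with earlier results of these data known. Under R 4.3.3, limma 3.58.1 with its variance trend was fitted to log2(value + 1) over 14618 genes with a mean of at least 10, two-sided, Benjamini-Hochberg adjusted over all genes, threshold 0.05. Fold changes understate low genes. p-values measure the spread between these libraries. Trend removal subtracted natural splines (5 terms each) of GC percent and log2 length of the longest GENCODE 29 transcript from each library. edgeR 4.0.16 (quasi-likelihood) and DESeq2 1.42.0 on recovered reads, other scalings, pseudocounts, filters, the replicate block and leaving out each library were alternatives. Trend removal combined with leaving out a library was chosen after seeing the data. Scripts were tested on simulated data. Every member is accounted for; from the wider lists, up to 2 genes per direction with the smallest adjusted p are named, and 1 gene of the rule is not reported here. The planned look at protein ends was not done.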

Additional observations from a re-analysis of the deposited data

How the results depend on the processing

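Pseudocounts of 0.5 and 5, a mean of at least 50, upper-quartile scaling and edgeR's quasi-likelihood test changed the call of none of the 35 genes. With no filter on low values the ER genes had 0 lower. Quantile normalization gave 0 lower in the amino acid response, 2 higher sensors and 6 higher and 0 lower ER genes, with 6 of the 9 calls kept and a difference between the medians of ER and amino acid genes of 0.204 in place of 0.127. DESeq2 gave 2 higher genes in the amino acid response, 2 higher sensors and 4 higher ER genes, with 8 of the 9 calls kept. limma without its variance trend gave 0 lower in the amino acid response and 3 higher and 0 lower ER genes. Removing the GC and length trend left 0 higher and 0 lower in each group, a sensor median of -0.139 and a difference of -0.0494. It took the share of higher genes among all called from 56.8% to 40.7%.

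The replicate block gave 2 higher genes in the amino acid response, 2 higher sensors and 6 higher and 2 lower ER genes, and with SHMT2 lower 13 calls in all. The replicate block with GC and length trend removal gave 0 higher and 0 lower in each group, with -0.139 and -0.0494 as before. Same-numbered libraries correlated at 0.0658, 0.00629 and 0.129 in their deviations from the group means. For knockout replicates 1 and 3 the same-numbered control gave the highest value, whereas knockout replicate 2 correlated better with control replicate 1 (0.0224). The labels do not say whether same-numbered libraries were handled together, and these values do not settle it.

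Leaving out each library in turn, with and without the trend, the amino acid response had 0 to 2 higher and 0 to 5 lower genes (median -0.108 to 0.216), the sensors 0 to 2 higher and 0 to 3 lower (-0.247 to 0.159), and the ER genes 0 to 7 higher and 0 to 6 lower (-0.0619 to 0.169). The difference ran from -0.0796 to 0.136. In these runs, reversals of sign with a call on either side came without control replicate 1, and all but that of HYOU1 also had the trend removed: HYOU1 ranged from -0.25 to 0.28, ATF6 from -0.22 to 0.25, XBP1 from -0.47 to 0.08, DNAJB9 from -0.10 to 0.75, HERPUD1 from -0.17 to 0.18, CANX from -0.04 to 0.47 and SEL1L from -0.05 to 0.54. The cause was not tested. Each group has 3 libraries, and the lowest count of any of the 35 genes in a library was 51 reads (ASNS), where counting error is not small against the spread.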
